A study of Bos taurus with 30 samples.

Results

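Epithelial and stromal cells of the bovine endometrium, cultured on both sides of one membrane under 50 mM glucose, were compared to find which differences between the cell types persisted at a high glucose concentration. The comparison used 6 of the 30 libraries of the series: the 3 libraries labelled as epithelial cells at 50 mM and the 3 labelled as stromal cells at 50 mM, paired by their replicate number. The sequenced libraries of the series cover 5 or 50 mM glucose and, in a separate experiment, vehicle, 1 or 10 ng/mL insulin, always in both cell types and in 3 biological replicates. The cells were primary cells isolated from the uteri of nonpregnant cows, separated by differential plating, and grown in a microfluidic device, the endometrium-on-a-chip. Stromal-enriched cells lay under a porous membrane in the lower chamber, epithelial cells lay above it, and medium flowed through the device for 3 days before the cells of each chamber were recovered with trypsin. Both cell types of the comparison therefore received the same high-glucose medium, without insulin as a treatment. They are cells in culture, and the separation by plating enriches a cell type without removing the other. The 6 libraries from 5 mM glucose and the 6 from the insulin vehicle group are used below for comparison. They show where the pattern at 50 mM is shared and where it differs. The vehicle was acetic acid in phosphate-buffered saline. Per the study's methods, the medium of the insulin experiment, vehicle included, also held 5 mM glucose.

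The endometrium is lined by an epithelium that holds together through adherens junctions, tight junctions and desmosomes, rests on a basement membrane, and secretes into the uterine lumen. The stroma beneath it is made mainly of fibroblasts, which deposit fibrillar collagens and proteoglycans and send growth factors and WNT ligands to the epithelium. Keratins, the intermediate filaments of epithelia, and collagens, the fibers of connective tissue, are the usual way to tell the cell types apart.

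Libraries held between 14241752 and 16647701 counts in the epithelial group (median 16353484) and between 14484828 and 15976064 in the stromal group (median 14656233). Expression is given as CPM, a gene's count scaled to the total of its library, and 3 counts, the limit that a count of 0 allows, correspond to 0.18 to 0.211 CPM. Such limits cover counting error only. A log2 fold change above 0 means higher in epithelial cells and below 0 higher in stromal cells, as fitted with edgeR's quasi-likelihood test with the replicate number as a block. A gene was called where its Benjamini-Hochberg adjusted p fell under 0.05 and its absolute log2 fold change exceeded 0.1. The labels do not say which animals a replicate number marks.

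Stromal replicate 3 stood apart from the other stromal libraries at 50 mM. Across genes, its log2 CPM correlated with the 3 epithelial libraries at 0.933, 0.936 and 0.941, and with stromal replicates 1 and 2 at 0.936 and 0.898. Stromal replicates 1 and 2 correlated with each other at 0.957 and with the epithelial libraries at 0.786 to 0.870. The summed level of 20 epithelial defining markers was 1570, 1083 and 6189 CPM in stromal replicates 1, 2 and 3, against 9999.8, 10204 and 10430 CPM in the epithelial libraries and 707, 350.2 and 98.8 CPM in the stromal libraries at 5 mM. None of those 20 markers was without a count in stromal replicate 3. Counts of calls, list medians and some single genes are therefore given with and without replicate 3, which leaves 2 pairs. In bulk RNA, fewer cells of a type and less RNA per cell cannot be told apart.

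KRT19, a keratin of simple epithelia, had 1939.9, 2170.3 and 2026 CPM in the epithelial libraries 1, 2 and 3 and 249.9, 128 and 1076 CPM in the stromal ones. Every epithelial library lay above every stromal library, and stromal replicate 3 lay between the epithelial libraries and the other stromal libraries. Its log2 fold change was 2.51 (SE 0.647), with an adjusted p of 0.0535 by the edgeR quasi-likelihood test after Benjamini-Hochberg correction, and 3.33 (adjusted p = 0.00701) without replicate 3. KRT7, another keratin of simple epithelia, had 1379, 1279.9 and 1127 CPM against 172, 73.6 and 597 CPM, again without overlap and with stromal replicate 3 in between. Its log2 fold change was 2.55 (adjusted p = 0.0533) and 3.38 (adjusted p = 0.00655) without replicate 3. KRT8, which pairs with KRT18 in the filaments of simple epithelia, had 1337, 1632 and 778 CPM against 192, 267 and 509.6 CPM. It was called, at 1.88 (SE 0.466, adjusted p = 0.0497), and was called again without replicate 3. The 3 epithelial markers thus kept their direction at 50 mM, but KRT19 and KRT7 missed the threshold with all 3 pairs and passed it without replicate 3.

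The 3 stromal markers were called with and without replicate 3. SPARC, a collagen-binding matrix glycoprotein, had 509.7, 463 and 211 CPM in epithelial cells and 5809, 5936 and 1890.3 CPM in stromal cells, at a log2 fold change of -3.60 (SE 0.249, adjusted p = 0.00181, edgeR quasi-likelihood test, Benjamini-Hochberg adjusted). COL6A3, a chain of the microfibrillar collagen VI, had 599.8, 441 and 518 CPM against 5129, 2394 and 2244 CPM, at -2.70 (SE 0.307, adjusted p = 0.00583). MMP2, a gelatinase of fibroblasts, had 458, 405 and 317 CPM against 3817, 2904 and 1845 CPM, at -2.97 (SE 0.243, adjusted p = 0.00250). Stromal replicate 3 was the lowest stromal library for all 3 genes, yet it stayed above every epithelial library. All 3 were called, as were 11% of all genes tested in the stromal direction. Without replicate 3 the log2 fold changes were -3.78 for SPARC, -2.95 for COL6A3 and -3.13 for MMP2, and all 3 were called again.

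**Figure D1:**
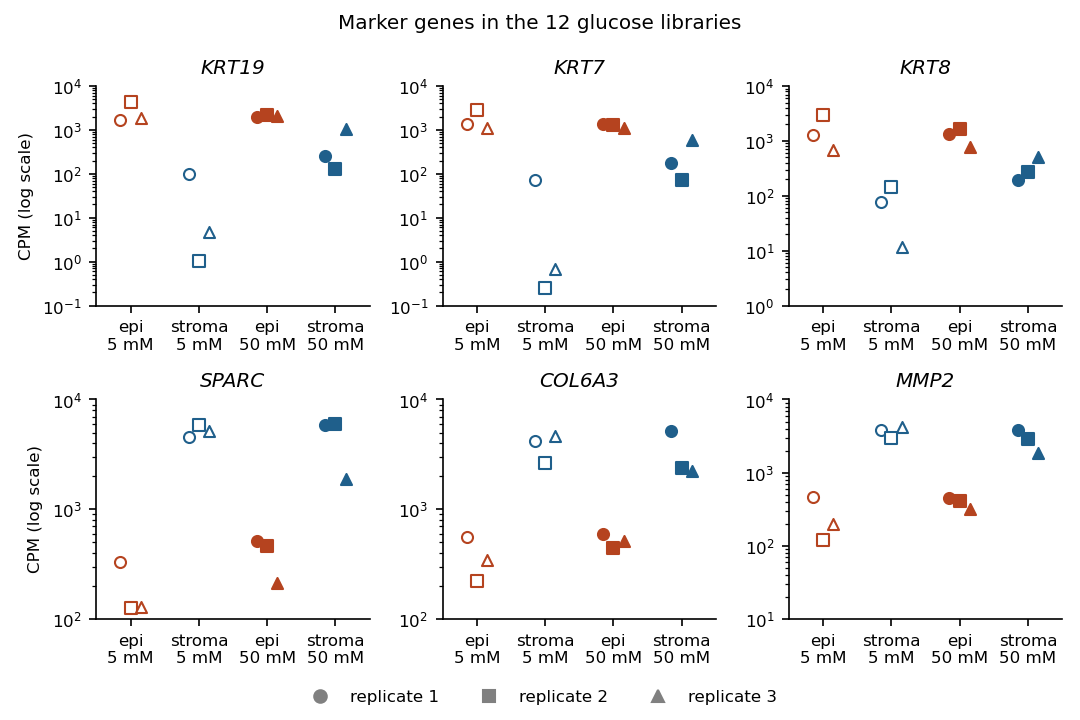
CPM on a log axis of the 3 epithelial markers KRT19, KRT7 and KRT8 and the 3 stromal markers SPARC, COL6A3 and MMP2 in each epithelial (red) and stromal (blue) library at 5 mM (open) and 50 mM glucose (filled), with a symbol for each replicate number. At 50 mM, the stromal libraries have 249.9, 128 and 1076 CPM of KRT19, the highest in replicate 3, and no stromal library overlaps the epithelial libraries.

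Of 13235 protein-coding genes tested at 50 mM, 2328 (17.6%) were called: 870 (6.57%) were higher in epithelial cells and 1458 (11%) higher in stromal cells. Without replicate 3 the calls numbered 3785 of 13338 genes (28.4%), with 1776 (13.3%) higher in epithelial and 2009 (15.1%) in stromal cells. Of the 1480 genes gained by leaving it out, 945 were higher in epithelial cells and 535 in stromal cells, while 120 of 2324 calls were lost and none turned its sign. Without replicate 1 no gene was called by edgeR's quasi-likelihood test, although 2437 had an unadjusted p under 0.05. Scaling by library totals, under which the median log2 fold change of all genes was 0.18 instead of 0.03, moved the split to 1458 epithelial and 1346 stromal calls. The libraries of the cell types did not overlap for 4702 genes (35.5%).

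The differences called at 5 mM kept their direction at 50 mM, and many of them were called again. At 5 mM, 2856 of 13286 genes (21.5%) were called, 1433 (10.8%) higher in epithelial and 1423 (10.7%) in stromal cells. Of these, 2758 were also tested at 50 mM and all 2758 had the same sign there. In total 1837 genes were called in both comparisons, which is 78.9% of the calls at 50 mM and 64.3% of those at 5 mM. Of 1413 genes higher in epithelial cells at 5 mM, 672 were called at 50 mM, and of 1345 genes higher in stromal cells, 1165 were. With replicate 3 left out at 50 mM these numbers became 1208 of 1411 and 1287 of 1397. The insulin vehicle group, with the largest number of calls (7200 of 12876 genes, 55.9%), shared 2072 calls of the same direction with the 50 mM comparison, 89.0% of the calls at 50 mM and 28.8% of its own, and 2 of the opposite direction. A core of 1668 genes was called in the same direction at 50 mM, at 50 mM without replicate 3, at 5 mM and in the vehicle group, 613 in the epithelial and 1055 in the stromal direction.

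The size of the differences was read pair by pair, as the log2 ratio of the epithelial to the stromal library of one replicate number with 0.5 CPM added to each. Over the 1413 genes called higher in epithelial cells at 5 mM, the median ratio at 50 mM was 3.87 in pair 1, 5.02 in pair 2 and 1.68 in pair 3. At 5 mM the same genes had median ratios of 5.54, 8.58 and 7.44, which is a description since they were chosen there. Over the 1345 genes called higher in stromal cells at 5 mM, the median log2 ratio at 50 mM was -2.11, -1.96 and -1.45. The median over all 13235 genes was 0.27, 0.10 and 0.13. Pair 3 had the smallest differences on both sides.

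**Figure D2:**
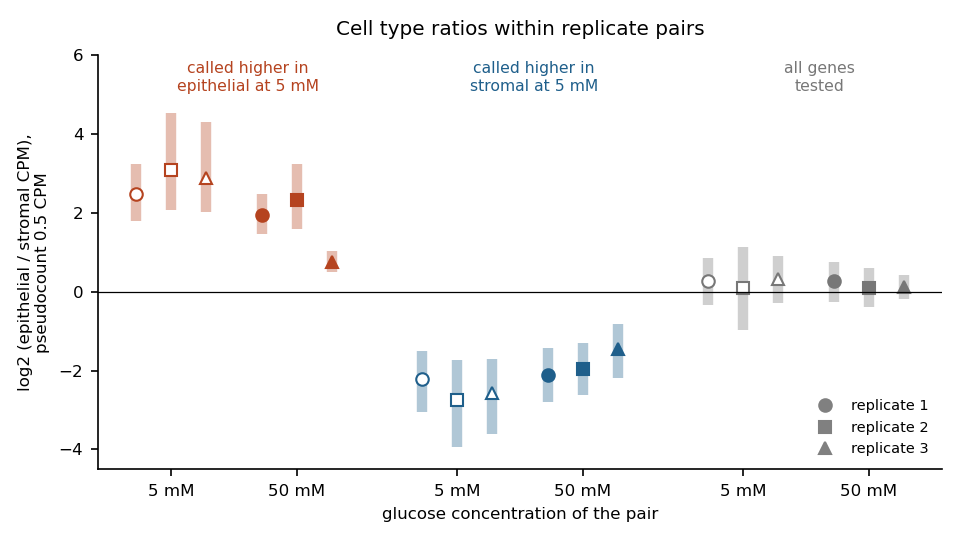
Medians of the log2 ratio of epithelial to stromal CPM (0.5 CPM added) in each replicate pair at 5 mM (open symbols) and 50 mM glucose (filled), over the genes called higher in epithelial cells at 5 mM, those called higher in stromal cells at 5 mM, and all protein-coding genes tested at 50 mM; bars span the quartiles over genes. At 50 mM the epithelial genes have a median of 0.75 in pair 3 against 1.95 and 2.33 in pairs 1 and 2.

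In epithelial cells, the 10 genes with the largest folds were taken from called genes with a mean of at least 10 CPM there and no overlap of libraries. ADAMTS16, a secreted metalloproteinase, had 18.0, 7.75 and 13.6 CPM in epithelial and 0.626, 0.0682 and 1.45 CPM in stromal cells, a log2 fold change of 4.23 (SE 0.549, adjusted p = 0.00886, edgeR quasi-likelihood test, Benjamini-Hochberg adjusted). SPINK5, an inhibitor of serine proteases in epithelia, had 111, 128 and 111 CPM against 4.32, 4.23 and 39.8 CPM, at 3.55 (adjusted p = 0.0379). The rule required that libraries not overlap, and the highest stromal value of both genes belonged to stromal replicate 3. BOLA-DRA, the alpha chain of the bovine MHC class II molecule DR, had 7.89, 18.8 and 16.6 CPM against 0.125, 0.478 and 5.25 CPM, at 3.57 (adjusted p = 0.0445). The other epithelial genes by this rule were GALNT17, a glycosyltransferase, UGT1A1, which conjugates bilirubin and other small molecules to glucuronic acid, RASAL1, a RAS GTPase-activating protein, NUP210, a nuclear pore protein, SLCO2A1, the prostaglandin transporter, CCDC198 and BICDL1, with log2 fold changes from 3.40 for BICDL1 to 4.13 for GALNT17.

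On the stromal side 10 genes were chosen by the same rule. FAM180A, a predicted secreted protein, had 1.04, 0.360 and 0.0702 CPM in epithelial and 28.6, 19.5 and 4.28 CPM in stromal cells, at -5.42 (SE 0.307, adjusted p = 0.00159, edgeR quasi-likelihood test, Benjamini-Hochberg adjusted). ACTA2, smooth muscle actin, had 100.3, 266 and 16.8 CPM against 1375, 4307 and 478 CPM, at -4.35 (adjusted p = 0.00168). SMOC1, a matricellular calcium-binding protein, had 11.3, 11.8 and 4.14 CPM against 199.9, 326 and 61.9 CPM, at -4.44 (adjusted p = 0.00159). In all 3 the lowest stromal value was that of stromal replicate 3, and the rule required it to lie above the highest epithelial value. DKK1, a secreted WNT inhibitor, MFAP4, a microfibril protein of elastic fibers, SERPINF1, an antiangiogenic secreted serpin, HTRA3, a secreted serine protease, WFDC1, a protease inhibitor, SUSD5, and SELP, the cell adhesion molecule P-selectin, completed the 10 genes, between -4.33 for SELP and -4.70 for WFDC1. All 20 genes with the largest folds were also called without replicate 3, at 5 mM and in the vehicle group.

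The 30 gene lists held 541 tested genes, of which 240 were called, 56 higher in epithelial and 184 in stromal cells, against 17.6% of all genes. The lists were chosen with earlier results of these data known, and some consist of cell type markers. The number called on them is therefore a description and not a test. Over all genes the share called was 6.57% in the epithelial and 11% in the stromal direction. Without replicate 3 these shares were 13.3% and 15.1%, and at 5 mM they were 10.8% and 10.7%. Each list count below is to be read beside the shares of its own fit. Leaving out replicate 3 lost 7 of the 240 list calls and turned none. The list medians ran from 2.24 for the epithelial defining markers to -3.11 for the matrix and collagen-processing genes.

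**Figure D3:**
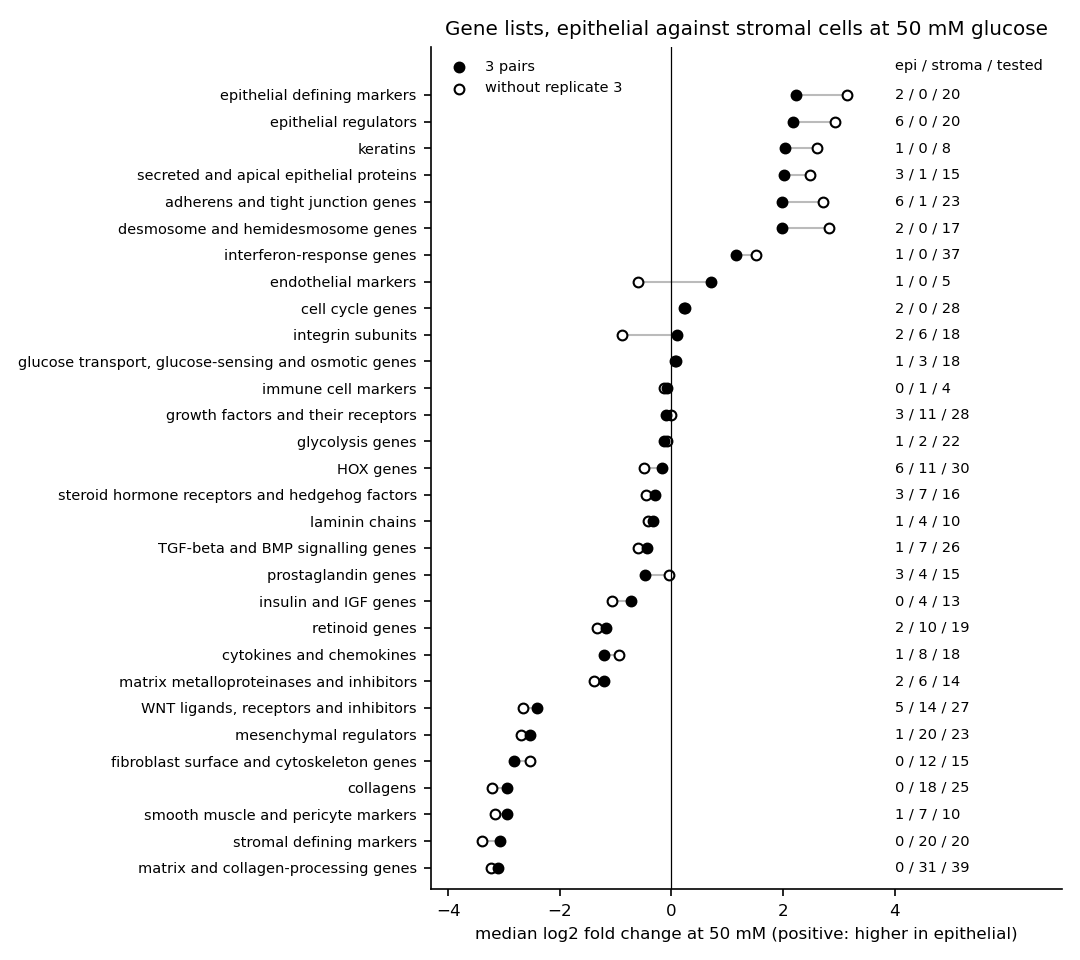
Median log2 fold change at 50 mM of each gene list, with all 3 pairs (filled) and without replicate 3 (open); numbers at the right count the members called higher in epithelial cells, called higher in stromal cells, and tested. The epithelial lists lie between 1.98 and 2.24 and move outward without replicate 3, to 3.15 for the epithelial defining markers.

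Of 20 epithelial defining markers, 2 were called higher in epithelial cells, SPINT2 and KRT8, beside 6.57% of all genes called in that direction. None was called in the stromal direction, and the median log2 fold change was 2.24. Without replicate 3 all 20 were called, at a median of 3.15, and at 5 mM 18 were, at a median of 7.25. Over all genes the shares called in the epithelial direction were 13.3% without replicate 3 and 10.8% at 5 mM. The libraries at 50 mM did not overlap for 18 of the 20 markers, beside 35.5% of all genes. Of 8 keratins, KRT8 alone was called with replicate 3, and 5 were called without it. The level in the stromal library, as a percentage of the epithelial library of its pair, had a median over the 20 markers of 16.3% in pair 1, 5.87% in pair 2 and 61.5% in pair 3. EPCAM, an epithelial adhesion molecule, had 447, 378 and 395 CPM in epithelial and 71.4, 23.3 and 307 CPM in stromal cells, and CDH1, which encodes E-cadherin, had 564, 534 and 691 CPM against 111, 35.4 and 479 CPM. Stromal replicate 3 was the highest stromal library for both. Their log2 fold changes were 2.20 (adjusted p = 0.0947) for EPCAM and 2.10 (adjusted p = 0.0872) for CDH1 with replicate 3, and 3.14 and 2.94, both called, without it, by the edgeR quasi-likelihood test after Benjamini-Hochberg correction.

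Among 23 adherens and tight junction genes, 6 were called higher in epithelial cells and 1 in stromal cells, with a median of 1.98. The 6 were the claudins CLDN1, CLDN6 and CLDN8, the tight junction membrane proteins MARVELD2 and MARVELD3, and CRB3, a determinant of apical polarity. CLDN1 had 24.5, 25.3 and 13.0 CPM in epithelial and 3.88, 8.39 and 8.01 CPM in stromal cells, a log2 fold change of 1.49 (SE 0.362, adjusted p = 0.0480, edgeR quasi-likelihood test, Benjamini-Hochberg adjusted). The epithelial libraries lay above the stromal ones without overlap. CDH3, which encodes P-cadherin, went the other way, with 1.71, 2.28 and 2.95 CPM against 4.76, 10.2 and 6.08 CPM, at -1.71 (adjusted p = 0.0248). Without replicate 3, 20 of the 23 genes were called higher in epithelial cells, beside 13.3% of all genes. Of 17 desmosome and hemidesmosome genes, PKP1 and DSG2 were called, both higher in epithelial cells. Without replicate 3 the count in that direction was 13, beside the same 13.3% of all genes. PKP1, a desmosomal plaque protein, had 25.4, 32.1 and 45.6 CPM against 2.38, 0.955 and 17.8 CPM, at 2.94 (adjusted p = 0.0462). DSC3, a desmosomal cadherin, had 0.428, 5.53 and 1.05 CPM against 5.57, 99.7 and 0.483 CPM and, at -3.04 (adjusted p = 0.0979), was not called with replicate 3 and was called in the stromal direction without it, at -4.18.

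Of 20 epithelial regulators 6 were called, all higher in epithelial cells, among them PAX8, OVOL2, MSX1, GRHL1 and KLF5. PAX8, a factor of Müllerian epithelium, had 73.6, 52.7 and 59.7 CPM in epithelial and 10.6, 4.84 and 22.5 CPM in stromal cells, at a log2 fold change of 2.37 (SE 0.405, adjusted p = 0.0207, edgeR quasi-likelihood test, Benjamini-Hochberg adjusted). MSX1, a homeobox factor of the uterine epithelium, had 167, 214 and 213 CPM against 24.0, 22.9 and 129.7 CPM, at 2.11 (adjusted p = 0.0485). KLF5, a zinc finger factor of proliferating epithelia, had 184, 149.6 and 275 CPM against 27.2, 32.5 and 149 CPM, at 1.80 (adjusted p = 0.0300). None of the 3 overlapped between the cell types. FOXA2, the factor of endometrial glands, had 0.245, 4.20 and 3.09 CPM against 0, 0 and 1.24 CPM and missed the threshold (adjusted p = 0.125); its low counts left it out of the test without replicate 3.

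Among 15 secreted and apical proteins, PIGR, CFB and CLU were called higher in epithelial cells and C3 higher in stromal cells. PIGR, which carries immunoglobulin A across epithelia, had 1.59, 2.34 and 10.95 CPM in epithelial and 0.125, 0.136 and 2.55 CPM in stromal cells, at 2.73 (adjusted p = 0.0212, edgeR quasi-likelihood test, Benjamini-Hochberg adjusted). Replicate 3 was high on both sides, and the epithelial library was the higher in each pair. CFB, factor B of the alternative complement pathway, had 867, 376 and 836 CPM against 100.2, 23.2 and 316 CPM, at 2.70 (adjusted p = 0.0297). C3, the central complement component on which factor B acts, had 1.41, 18.1 and 2.46 CPM against 7.95, 85.6 and 15.5 CPM, at -2.59 (adjusted p = 0.00203). The C3 libraries overlapped across pairs, since replicate 2 was high on both sides, but the stromal library was the higher in each pair, and CFB and C3 were called in opposite directions. MUC1, a mucin of the luminal surface, had 578, 407 and 566 CPM against 125, 25.9 and 435 CPM and was called without replicate 3 but not with it (2.90, adjusted p = 0.0192).

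All 20 stromal defining markers were called higher in stromal cells, with and without replicate 3, at medians of -3.07 and -3.39. The summed level of these markers was 88681, 67385 and 25921 CPM in the stromal libraries and 7331, 6268 and 3058 CPM in the epithelial libraries. The epithelial library of a pair held a median of 10.7%, 11.6% and 15.8% of the level in its stromal library. COL1A1, a chain of the fibrillar collagen I, had 1733, 1599 and 407 CPM in epithelial and 25347, 20571 and 5708 CPM in stromal cells, and LUM, the collagen-binding proteoglycan lumican, had 176, 87.0 and 23.9 CPM against 2188, 966 and 502 CPM. Their log2 fold changes were -3.94 (SE 0.267, adjusted p = 0.00180) for COL1A1 and -3.98 (SE 0.262, adjusted p = 0.00179) for LUM by the edgeR quasi-likelihood test after Benjamini-Hochberg correction. Stromal replicate 3 was again the lowest stromal library and did not overlap the epithelial libraries.

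Of 23 mesenchymal regulators, 20 were called higher in stromal cells. HAND2, a progesterone-regulated factor of the uterine stroma, had 0.489, 0.841 and 0.421 CPM in epithelial and 5.76, 9.42 and 2.69 CPM in stromal cells, at -3.43 (SE 0.349, adjusted p = 0.00427, edgeR quasi-likelihood test, Benjamini-Hochberg adjusted). NR2F2, which encodes COUP-TFII of the uterine stroma, had 7.89, 7.39 and 8.50 CPM against 36.0, 52.9 and 26.5 CPM, at -2.38 (adjusted p = 0.00627). FOXL2, a factor of ovarian and uterine mesenchyme, had 0.611, 0.120 and 0.421 CPM against 2.82, 1.02 and 1.59 CPM, at -2.43 (adjusted p = 0.0239). The stromal libraries lay above the epithelial libraries for all 3. The exception among the called members was OSR1, a zinc finger factor of urogenital mesenchyme, which was higher in epithelial cells, with 51.2, 50.0 and 30.8 CPM against 14.9, 7.03 and 17.5 CPM, at 1.64 (adjusted p = 0.0473). Its relative OSR2 had 3.42, 2.04 and 3.09 CPM against 17.0, 13.0 and 13.9 CPM and was called in the opposite direction, at -2.53 (adjusted p = 0.00295). Among 15 fibroblast surface and cytoskeleton genes, 12 were called higher in stromal cells, among them THY1 at -3.43, ENG at -3.47 and the intermediate filament gene VIM at -1.70. VIM had 970.0, 890.3 and 489 CPM in epithelial and 2386, 2766 and 1591 CPM in stromal cells, without overlap of the cell types.

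Of 25 collagen chains, 18 were called, all higher in stromal cells, and of 39 matrix glycoproteins, proteoglycans and collagen-processing genes, 31 were, also all higher in stromal cells. Without replicate 3 the collagen chains had 3 calls in the epithelial and 20 in the stromal direction, the matrix genes 1 and 32, and at 5 mM the collagen chains had 3 and 18. COL12A1, a fibril-associated collagen, had 717, 541 and 227 CPM in epithelial and 8814, 8889.5 and 3987 CPM in stromal cells, the largest fold of a collagen at -4.08 (SE 0.241, adjusted p = 0.00159, edgeR quasi-likelihood test, Benjamini-Hochberg adjusted). Collagen-processing genes moved with them, among them LOX, the cross-linking lysyl oxidase, at -2.34, SERPINH1, a collagen chaperone, at -2.72 and PLOD2, a lysyl hydroxylase, at -2.63, each called. FN1, which encodes fibronectin, had 14466, 15007 and 26495 CPM against 19285, 21885 and 20252 CPM, at -0.34 (adjusted p = 0.496), and THBS1, a matricellular protein, had 19911, 18392 and 12545 CPM against 24175, 21519 and 11589 CPM, at -0.28 (adjusted p = 0.504). These matrix genes were not called, and their libraries overlapped between the cell types. AGRN, the heparan sulfate proteoglycan agrin, ran in the epithelial direction, with 910.5, 1008 and 1156 CPM against 253, 87.9 and 621 CPM, and was called without replicate 3 but not with it (2.49, adjusted p = 0.0259).

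Genes of the basement membrane divided by chain. The collagen IV chains COL4A1 and COL4A2, found in basement membranes generally, were higher in stromal cells, with 329, 366 and 209.8 CPM against 3644, 3513 and 1682 CPM for COL4A1 at -3.40 (adjusted p = 0.00193, edgeR quasi-likelihood test, Benjamini-Hochberg adjusted). COL4A3, a chain of specialized epithelial basement membranes, had 63.8, 69.6 and 52.5 CPM against 16.1, 5.05 and 36.0 CPM and was called in the epithelial direction without replicate 3 but not with it (2.65, adjusted p = 0.0230). Of 10 laminin chains, LAMA5 was called higher in epithelial cells, and LAMA1, LAMA4, LAMB1 and LAMC3 higher in stromal cells. LAMA5, the alpha chain of mature epithelial laminins, had 775, 873 and 1338 CPM against 197, 219 and 623 CPM, at 1.54 (SE 0.238, adjusted p = 0.0155). LAMB1 had 508, 491 and 366 CPM against 1704, 2349 and 1032 CPM, at -1.99 (SE 0.235, adjusted p = 0.00647). LAMA3 and LAMB3, chains of the laminin that anchors hemidesmosomes, had log2 fold changes of 1.64 and 1.76. Neither was called with replicate 3 and both were without it.

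The integrins, receptors for this matrix, also divided: of 18 subunits, 2 were called higher in epithelial cells and 6 higher in stromal cells. Beside these counts stand 6.57% and 11% of all genes. ITGB8 and ITGB7 were the epithelial ones, and ITGB8 had 87.4, 81.0 and 68.5 CPM against 23.1, 9.62 and 35.3 CPM, at 1.81 (adjusted p = 0.0421, edgeR quasi-likelihood test, Benjamini-Hochberg adjusted). The stromal ones were the collagen-binding subunits ITGA1 and ITGA11, the fibronectin-binding ITGA5, ITGA8 and ITGA9, and their partner ITGB1. ITGA11 had 3.67, 1.80 and 0.843 CPM against 50.1, 34.2 and 11.05 CPM, at -4.08 (adjusted p = 0.00159). ITGA6 and ITGB4, which form the laminin receptor of hemidesmosomes, had log2 fold changes of 2.03 and 2.26 and adjusted p-values of 0.0671 and 0.0545, and both were called without replicate 3. Among 14 matrix metalloproteinases and inhibitors, MMP13 and MMP15 were called higher in epithelial cells, and MMP2, MMP14, MMP19 and the inhibitors TIMP2, TIMP3 and RECK higher in stromal cells. MMP14, the membrane-bound activator of MMP2, had 123, 168 and 175 CPM against 422, 364 and 299 CPM, at -1.37 (adjusted p = 0.0313). MMP7, a metalloproteinase of glandular epithelium, had 769, 289.8 and 431 CPM against 87.0, 30.4 and 328 CPM and was called without replicate 3 but not with it (3.01).

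Hedgehog signaling in the uterus runs from ligands made by the epithelium to receptors and GLI factors in the stroma. The ligand IHH had 35.8, 29.1 and 19.8 CPM in epithelial and 9.33, 2.32 and 18.0 CPM in stromal cells and was not called with replicate 3 (1.67, adjusted p = 0.137, edgeR quasi-likelihood test, Benjamini-Hochberg adjusted), whereas it was called without it (2.51, adjusted p = 0.0231). Of the receiving side, SMO, the signal transducer, had 7.89, 9.25 and 4.14 CPM against 80.2, 79.2 and 43.7 CPM, at -3.43 (SE 0.179, adjusted p = 0.00159). SMO and the factors GLI2 (-2.55) and GLI3 (-2.47) were called higher in stromal cells. PTCH1, a hedgehog receptor, was higher in epithelial cells, with 90.6, 86.9 and 75.0 CPM against 39.5, 27.2 and 51.2 CPM, at 0.99 (adjusted p = 0.0492). In the list of 16 steroid receptors and hedgehog factors, 3 genes were called higher in epithelial and 7 in stromal cells. FKBP5, a cochaperone of steroid receptors, was higher in epithelial cells at 1.61. ESR1, estrogen receptor alpha, had 42.7, 69.3 and 50.2 CPM against 26.1, 32.7 and 34.9 CPM (0.62, adjusted p = 0.0700), and PGR, the progesterone receptor, had 10.1, 12.2 and 19.2 CPM against 17.2, 15.9 and 19.6 CPM (-0.54, adjusted p = 0.168). Neither receptor was called.

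Of 27 WNT ligands, receptors and inhibitors, 5 were called higher in epithelial and 14 in stromal cells. WNT7A, the ligand of the uterine luminal epithelium, had 75.2, 47.6 and 68.2 CPM in epithelial and 11.8, 3.28 and 35.2 CPM in stromal cells, at 2.29 (SE 0.557, adjusted p = 0.0482, edgeR quasi-likelihood test, Benjamini-Hochberg adjusted). WNT7B and the frizzled receptors FZD5, FZD6 and FZD10 were also higher in epithelial cells. WNT5A, a ligand of noncanonical signaling, had 44.3, 40.0 and 27.7 CPM against 332, 212 and 78.4 CPM, at -2.43 (SE 0.340, adjusted p = 0.0113). WNT2, a ligand of the stroma, had 3.49, 5.23 and 2.67 CPM against 58.5, 35.6 and 47.6 CPM, at -3.80 (adjusted p = 0.00349). The libraries of the cell types did not overlap for these 3 ligands. The secreted inhibitors SFRP1 (-3.91), SFRP2 (-4.01), DKK1 (-4.68) and DKK2 (-3.22) and the WNT agonist RSPO3 (-4.02) were all higher in stromal cells. Of the 19 called genes, FZD5 lost its call without replicate 3, where its adjusted p was 0.0596.

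Growth factor genes included a ligand and a receptor called in opposite directions. FGF7, a stromal ligand of an epithelial FGF receptor, had 14.1, 26.2 and 14.3 CPM in epithelial and 112, 146 and 149 CPM in stromal cells, at -3.10 (adjusted p = 0.00203, edgeR quasi-likelihood test, Benjamini-Hochberg adjusted), and FGF10, with the same role, was at -3.73 (adjusted p = 0.0156). Their receptor gene FGFR2 was at 0.74 (adjusted p = 0.162) and was not called. HGF, hepatocyte growth factor, had 4.10, 1.14 and 1.97 CPM against 18.7, 3.41 and 14.0 CPM, at -2.39 (adjusted p = 0.00862), and MET, its receptor, ran the other way with 483, 547 and 721 CPM against 97.0, 107 and 428 CPM, at 1.66 (adjusted p = 0.0361). FGF9 and ERBB2 were the other genes called higher in epithelial cells, and FGF9 had 58.3, 24.1 and 138 CPM against 12.2, 2.59 and 42.0 CPM. The PDGF receptors PDGFRA and PDGFRB were higher in stromal cells, at -2.82 and -3.01. Their ligands PDGFA (1.09) and PDGFB (2.01) were called higher in epithelial cells without replicate 3 but not with it, while PDGFC (-2.20) and PDGFD (-4.19) were called higher in stromal cells. In all, 3 of 28 growth factor genes were called higher in epithelial and 11 in stromal cells.

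Of 26 TGF-beta and BMP genes, 1 was called higher in epithelial and 7 in stromal cells, beside 6.57% and 11% of all genes. The epithelial one was INHBB, a chain of activin B, with 73.1, 75.8 and 144 CPM in epithelial and 32.4, 15.1 and 25.4 CPM in stromal cells, at 1.85 (adjusted p = 0.0249, edgeR quasi-likelihood test, Benjamini-Hochberg adjusted). INHBA, the chain of activin A, had 128, 125 and 71.5 CPM against 1056, 403 and 283 CPM and was higher in stromal cells, at -2.38 (adjusted p = 0.0132). The BMP antagonist GREM1 had 21.7, 13.8 and 1.83 CPM against 243, 113 and 43.1 CPM, at -3.78 (adjusted p = 0.00262). BMP4, TGFB3, ID1, ACVR1 and LTBP1 were the other stromal calls, from -2.82 for TGFB3 to -0.74 for ACVR1.

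Prostaglandin genes, through which the ruminant endometrium times luteolysis, were divided between the cell types. OXTR, the oxytocin receptor, had 26.8, 42.0 and 134 CPM in epithelial and 1.38, 1.09 and 42.2 CPM in stromal cells, at 3.39 (SE 0.718, adjusted p = 0.0356, edgeR quasi-likelihood test, Benjamini-Hochberg adjusted). SLCO2A1, the prostaglandin transporter, had 76.3, 28.8 and 42.3 CPM against 3.25, 1.09 and 11.3 CPM, at 3.47 (adjusted p = 0.0222). The OXTR level of stromal replicate 3 lay within the epithelial range, while SLCO2A1 did not overlap between the cell types. PTGER4, a receptor of prostaglandin E2, was also higher in epithelial cells, at 1.56. PTGS2, the inducible cyclooxygenase, had 137, 57.8 and 148 CPM against 826, 209.7 and 344 CPM and was higher in stromal cells, at -2.04 (adjusted p = 0.0189). PTGIS (-2.78) and PTGDS (-3.13), the synthases of prostacyclin and prostaglandin D2, and the prostacyclin receptor PTGIR (-2.75) were called in the same direction. PTGES, the inducible prostaglandin E synthase, had 8.56, 13.2 and 44.7 CPM against 21.9, 12.3 and 51.1 CPM (-0.62, adjusted p = 0.261) and was not called. Of the 15 genes, 3 were called higher in epithelial and 4 in stromal cells, beside 6.57% and 11% of all genes.

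Retinoid genes also divided, with 2 of 19 called higher in epithelial and 10 in stromal cells. Retinal dehydrogenases make retinoic acid, and ALDH1A3 had 3987, 2928 and 3238 CPM in epithelial and 911, 459 and 1589 CPM in stromal cells, at 1.79 (adjusted p = 0.0310, edgeR quasi-likelihood test, Benjamini-Hochberg adjusted). ALDH1A2, of the same enzyme class, had 0.306, 2.34 and 0.281 CPM against 6.26, 34.6 and 0.897 CPM, at -3.79 (adjusted p = 0.00973). The paralogs were called in opposite directions, and stromal replicate 3 had the lowest level of ALDH1A2 among the stromal libraries. RDH10, which supplies retinal to these enzymes, was higher in epithelial cells (1.72), and the retinol carrier RBP4 (-3.22), its receptor STRA6 (-2.95) and the retinoic acid receptors RARB (-2.60) and RARG (-1.60) higher in stromal cells. CYP26B1, which degrades retinoic acid, was called in the stromal direction (-1.18) and lost its call without replicate 3 (adjusted p = 0.0529). Of 13 insulin and IGF genes, 4 were called, all higher in stromal cells, beside 11% of all genes in that direction. They were IGF2 (-4.17), the IGF-binding proteins IGFBP4 (-2.44) and IGFBP7 (-3.02), and PAPPA (-2.10), the protease that cleaves IGFBP4. IGF2 had 0.489, 0.120 and 2.18 CPM against 13.6, 3.21 and 20.8 CPM.

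Genes of glucose transport, glucose sensing and osmotic balance were compared between the cell types. Of 18 tested, 1 was called higher in epithelial and 3 in stromal cells, beside 17.6% of all genes called in either direction, and the median was 0.08. SLC2A3, a glucose transporter of high affinity, had 289, 189 and 693 CPM in epithelial and 1734, 654 and 1771 CPM in stromal cells, at -2.06 (SE 0.328, adjusted p = 0.0168, edgeR quasi-likelihood test, Benjamini-Hochberg adjusted). SLC2A1, the widespread glucose transporter, had 637, 802 and 601 CPM against 287, 149 and 526 CPM and was called in the epithelial direction without replicate 3 but not with it (1.60, adjusted p = 0.0454). AQP1, a water channel, was higher in stromal cells (-3.20, adjusted p = 0.00891), with 0.917, 0.601 and 0.140 CPM against 4.63, 8.67 and 1.10 CPM. SLC6A12, the transporter of the osmolyte betaine, was higher in epithelial cells, with 3.30, 3.54 and 7.30 CPM against 0.125, 0.136 and 2.14 CPM (3.01, adjusted p = 0.0366). The carbohydrate-responsive gene TXNIP had 111, 198 and 437 CPM against 74.5, 112 and 398 CPM, and the osmotic regulator NFAT5 had 102, 85.2 and 94.2 CPM against 117, 81.7 and 131 CPM. Neither was called, with adjusted p-values of 0.239 and 0.201. Of 22 glycolysis genes 3 were called, beside 17.6% of all genes. The lactate transporter SLC16A1 was higher in epithelial cells (1.19), and ENO2 (-1.65) and PFKM (-1.06) higher in stromal cells. The list's median was -0.14 at 50 mM, -0.021 at 5 mM and 0.92 in the vehicle group.

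HOX genes, which record position along the body axis, were called in both directions. Of 30 tested, 6 were called higher in epithelial and 11 in stromal cells, beside 6.57% and 11% of all genes. The libraries did not overlap for 20, beside 35.5% of all genes. The epithelial calls were HOXA2, HOXA3, HOXB3, HOXB5, HOXB6 and HOXB9, all from the A and B clusters. The stromal calls were HOXA9, HOXA10 and HOXA11, HOXC6 and HOXC10, and every tested member of the D cluster: HOXD3, HOXD4, HOXD8, HOXD9, HOXD10 and HOXD11. HOXA10, needed in the uterus for implantation, had 1.71, 1.62 and 0.632 CPM in epithelial and 18.8, 21.0 and 10.6 CPM in stromal cells, at -3.85 (SE 0.231, adjusted p = 0.00159, edgeR quasi-likelihood test, Benjamini-Hochberg adjusted). HOXA11, likewise, had 2.14, 1.14 and 0.913 CPM against 17.5, 15.1 and 9.60 CPM, at -3.52 (adjusted p = 0.00181). HOXB6 had 9.72, 12.0 and 10.9 CPM against 1.25, 4.03 and 4.49 CPM, at 1.73 (adjusted p = 0.0308). In HOXA10 and HOXA11, stromal replicate 3 was the lowest stromal library, and in HOXB6 it was the highest. HOXA10 and HOXA11 were called in the same direction without replicate 3 and at 5 mM. HOXA2 and HOXB5 lost their call without replicate 3, where 7 members were called in the epithelial and 12 in the stromal direction.

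**Figure D4:**
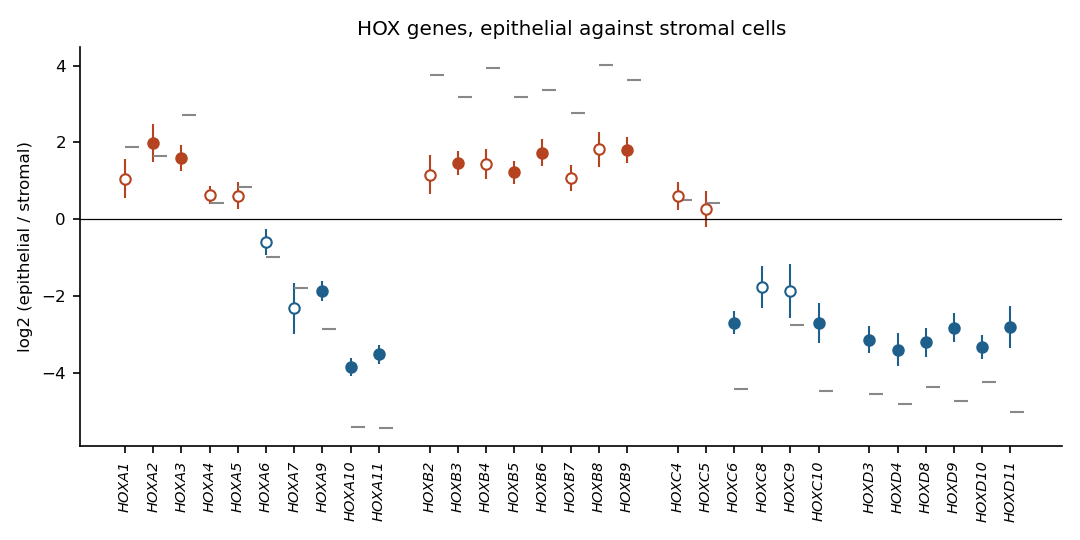
Log2 fold change of epithelial over stromal cells (bars are standard errors) of the 30 tested HOX genes at 50 mM, ordered by cluster and number, with called genes filled and gray dashes for the values at 5 mM where tested. The D cluster members lie between -2.80 for HOXD11 and -3.39 for HOXD4, HOXA10 is the lowest at -3.85, and all tested B cluster members lie above 0.

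Of 37 interferon-response genes tested at 50 mM, 1 was called, IFI35, and the median log2 fold change was 1.15. At 5 mM 25 of 35 were called, all higher in epithelial cells, at a median of 3.32, beside 10.8% of all genes. Leaving out replicate 3 raised the count at 50 mM to 3 of 37, beside 13.3% of all genes. The median at 50 mM was 0.31 without replicate 2. The pair medians at 50 mM were 0.41, 2.49 and 0.36 on the log2 scale, so that pairs 1 and 3 lay together and pair 2 apart. MX2, an interferon-induced GTPase, had 41.2, 38.5 and 16.7 CPM in epithelial and 12.1, 0.136 and 17.4 CPM in stromal cells at 50 mM, and 208, 12.5 and 35.3 CPM against 0, 0 and 0 CPM at 5 mM. RSAD2, the antiviral protein viperin, had 69.1, 20.0 and 77.6 CPM against 23.7, 0.614 and 53.4 CPM at 50 mM, and 243, 23.7 and 69.7 CPM against 0.586, 0 and 0.0610 CPM at 5 mM. Stromal replicates 1 and 3 at 50 mM were both above the 3 stromal libraries at 5 mM for these genes. RSAD2 was named for its small p in the test of the difference between the concentrations, given below. No gene was called there by edgeR's quasi-likelihood test, and these values are a description. IFI35 had 27.7, 18.8 and 14.2 CPM against 7.70, 7.44 and 8.22 CPM at 50 mM, at 1.18 (SE 0.232, adjusted p = 0.0299, edgeR quasi-likelihood test, Benjamini-Hochberg adjusted).

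Beside these values stand those of the epithelial markers. Over the interferon list, the stromal library held a median of 75.1%, 14.6% and 77.8% of the level in its epithelial library in pairs 1, 2 and 3, and over the 20 epithelial defining markers 16.3%, 5.87% and 61.5%. In pair 1 the stromal level of the interferon genes was thus nearer to the epithelial level than that of the markers was, and the part of epithelial transcripts in this was not tested. The summed level of the interferon list was 2976, 1615 and 2111 CPM in the epithelial libraries and 2380.4, 554.9 and 1763 CPM in the stromal libraries at 50 mM, and 5256, 1612 and 2593 CPM against 606, 459 and 641 CPM at 5 mM.

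**Figure D5:**
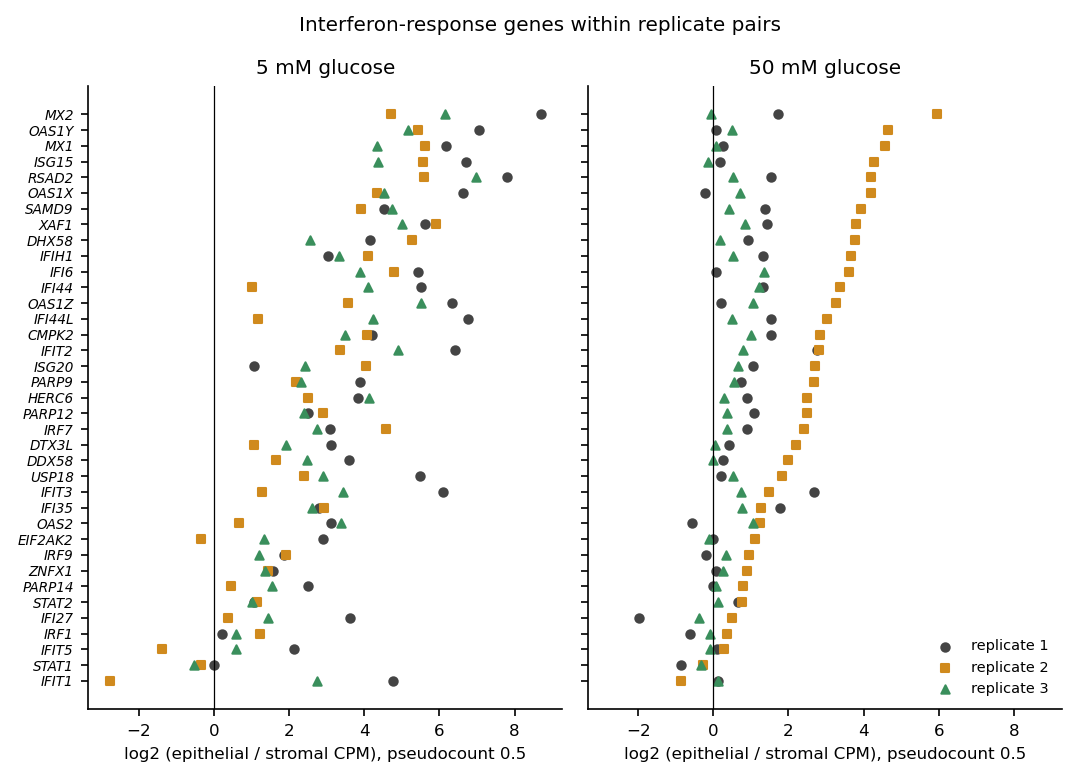
Log2 ratio of epithelial to stromal CPM (0.5 CPM added) of the 37 interferon-response genes tested at 50 mM, in each replicate pair at 5 mM (left) and 50 mM glucose (right). At 50 mM pairs 1 and 3 cluster near 0, with medians of 0.41 and 0.36, and pair 2 has a median of 2.49.

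Among 18 cytokines and chemokines, 1 was called higher in epithelial and 8 in stromal cells, beside 6.57% and 11% of all genes. The epithelial one was LIF, the leukemia inhibitory factor that acts at implantation, with 72.2, 65.4 and 68.0 CPM in epithelial and 45.3, 22.2 and 23.1 CPM in stromal cells, at 1.11 (adjusted p = 0.0466, edgeR quasi-likelihood test, Benjamini-Hochberg adjusted), and its call was lost without replicate 3 (adjusted p = 0.0859). The neutrophil chemoattractants CXCL5 (-3.00) and CXCL8 (-2.15), the macrophage growth factor CSF1 (-1.60) and the monocyte chemoattractant CCL2 (-3.55) were higher in stromal cells. CXCL8 had 24.4, 9.37 and 5.34 CPM against 69.9, 34.7 and 33.5 CPM. IL6 had 169, 46.4 and 85.2 CPM against 15.1, 5.32 and 58.8 CPM, at 2.25 (adjusted p = 0.0607), and was called in the epithelial direction without replicate 3 but not with it.

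Markers of other cell types of the uterine wall were also compared. Of 10 smooth muscle and pericyte markers, 7 were called higher in stromal cells, and their summed level was 3874, 9088 and 1749 CPM in the stromal libraries against 487, 901 and 313 CPM in the epithelial libraries. DES, the muscle filament desmin, had 83.4, 223 and 27.9 CPM in epithelial and 1014, 2545 and 513 CPM in stromal cells, at -3.92 (adjusted p = 0.00159, edgeR quasi-likelihood test, Benjamini-Hochberg adjusted), and TAGLN, an actin-binding protein of smooth muscle, was at -2.49. MYOCD, a coactivator of smooth muscle genes, went the other way, with 72.2, 19.0 and 32.2 CPM against 13.1, 2.87 and 20.0 CPM, at 1.77 (adjusted p = 0.0449). Endothelial markers summed to 26.8, 39.9 and 62.6 CPM in the epithelial and 21.2, 13.3 and 30.3 CPM in the stromal libraries. VWF, von Willebrand factor, was the only one of 5 called, at 1.16 (adjusted p = 0.0478), and it lost its call without replicate 3. Immune cell markers summed to between 6.21 and 14.6 CPM in the 6 libraries, and CD163, a macrophage receptor, was called higher in stromal cells (-2.80, adjusted p = 0.0409). Of 28 cell cycle genes, CCNE2 (1.45) and MCM7 (0.72) were called, both higher in epithelial cells, beside 6.57% of all genes in that direction. The cell cycle list's median was 0.24.

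Whether the difference between the cell types itself changed with glucose was tested across the 12 glucose libraries. No gene of 13851 (0%) was called by edgeR's quasi-likelihood test, where 944 had an unadjusted p under 0.05 and the smallest Benjamini-Hochberg adjusted p was 0.728. DESeq2 called 29 genes, 27 of them higher in epithelial cells at 5 mM, and all 29 had a lower epithelial to stromal ratio at 50 mM than at 5 mM. The 5 genes with the smallest unadjusted p-values were TMPRSS11BNL, GPR183, OAS1Z, IFIT2 and RSAD2, 3 of which are on the interferon-response list, and all had an adjusted p of 0.728. Their stromal libraries at 5 mM were at or near a count of 0, so that the size of the fitted difference depends on the prior count and is not given. A cell type difference that was called at 5 mM and not at 50 mM is therefore not shown to differ between the glucose concentrations.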

How the data were processed

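RNA sequencing libraries of epithelial and stromal cells were analysed from a table of counts per gene that the authors deposited. Per the study's methods, the authors trimmed single-end stranded reads with Cutadapt, filtered them by quality, aligned them to the Ensembl cow genome with Rsubread, kept unique alignments and counted them with featureCounts. The authors' own comparison tables hold fold changes and p-values and were used only for gene IDs, symbols and types.

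Genes of each comparison were kept with filterByExpr (minimum count 10), scaled with TMM and fitted with edgeR 4.0.16 (R 4.3.3) quasi-likelihood tests with cell type and the replicate number as a block, 3 libraries per cell type. P-values were adjusted by Benjamini-Hochberg over all genes tested (13892 at 50 mM), and calls (adjusted p under 0.05, log2 fold change beyond 0.1) were counted over protein-coding genes. The prior count of the fold changes was 0.125, and standard errors were computed from the fold change and its F statistic. CPM used the library total. The numbers were taken to pair the libraries because the study used a paired sample design. Deviations from the group means correlated at 0.453, 0.477 and 0.521 for the same number at 50 mM, against -0.376 to 0.000121 for different numbers. At 5 mM these correlations were 0.096, 0.034 and 0.334 for the same number, against -0.22 to 0.0759 for different numbers. Deviations of a group from its own mean cancel out, so a higher correlation for the same number lowers those for different numbers. Stromal replicate 3 also enters the values at 50 mM, and the correlations are a description. The series describes biological replicates without naming the animals of each library. In the comparisons of cell types, p-values rest on the spread of the epithelial to stromal difference across replicate numbers. A spread between known animals is not measured.

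The difference between concentrations was fitted as an interaction over 12 libraries with the replicate number as a block. The script was tested on simulated data. The simulated counts held no replicate effect and no library mixed with the other cell type. They therefore do not test the block or the handling of stromal replicate 3. Alternatives were no block, RLE size factors, library totals, no filter, DESeq2 1.42.0, leaving out each replicate, and leaving out stromal replicate 3. Of 634 symbols on the 30 lists, 592 matched an ID. The members and lists were chosen with earlier results of these data known. Named genes were the 6 markers and, among called genes without overlap of libraries, the 10 with the largest folds in each direction. Also named were list members with the highest CPM or largest folds or called against their list. Genes that lost a call without replicate 3 and the 5 smallest p-values for the difference completed them. Some list members were named after their values were seen. No gene coordinates or sequences are given, since no genome of the files' build was used here. A few list members that were called are not reported here by name.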

Additional observations from a re-analysis of the deposited data

How the results depend on the processing

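Without the replicate block 1052 genes were called at 50 mM, 246 in the epithelial and 806 in the stromal direction, instead of 2328, 946 instead of 1837 calls were shared with 5 mM, and 126 instead of 240 list members were called. DESeq2 raised the shared calls to 3025 and called 29 genes for the difference between the concentrations, where the other alternatives called 0. Leaving out a replicate, or stromal replicate 3 together with the replicate block or from the fit of 12 libraries, gave 0 to 3785 calls at 50 mM, 0 to 2323 shared calls (2495 where replicate 3 was left out at 50 mM only) and 0 to 343 list members. The counts of 0 were those without replicate 1, where the smallest adjusted p by edgeR's quasi-likelihood test was 0.050. For calls at 50 mM, the alternatives gave 2804 (library totals), 3070 (no filter on low counts), 3441 (DESeq2) and 1975 (all 12 libraries in 1 fit). Of 166 named genes called, 77 kept their call without the block, 0 of 165 without replicate 1, 146 of 165 without replicate 2 and 160 without replicate 3, and none turned its sign. PTGES, not called, ranged from -0.92 without replicate 2 to 0.073, with its sign turned, without the block and stromal replicate 3. The cause of these changes was not tested.

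Of the 30 list medians on the log2 scale, those of the epithelial groups, collagens, WNT and interferon genes moved by less than the spread between pairs. That spread was wide, with pair medians of 2.61, 4.03 and 0.70 for the epithelial defining markers. Their median of 2.24 ran from 1.48 without replicate 2 to 3.69 where stromal replicate 3 was left out of the fit of 12 libraries. The interferon median of 1.15 was 0.48 without the block, 0.31 without replicate 2 and 0.41 without the block and stromal replicate 3. Scaling by library totals gave -0.18 for laminins, 0.052 for growth factors and -0.32 for prostaglandin genes. Testing without the filter gave -0.47 for integrins, -0.021 for steroid receptors and hedgehog factors and 0.21 for growth factors. One fit of all 12 libraries gave -0.61 for integrins, -0.19 for prostaglandin genes, -3.41 for smooth muscle markers and 0.20 for endothelial markers. The same settings that leave out libraries gave -3.51 to -2.90 for the stromal defining markers, -2.87 to -2.42 for mesenchymal regulators, -3.51 to -2.84 for matrix genes, -0.50 to -0.17 for laminins, -0.99 to 0.47 for integrins, -0.52 to 0.0066 for steroid receptors and hedgehog factors, -0.084 to 0.18 for growth factors, -0.64 to -0.027 for prostaglandin genes, -0.33 to 0.62 for glucose and osmotic genes, -1.63 to -0.60 for cytokines, -0.66 to 0.56 for HOX genes, -3.65 to -2.70 for smooth muscle, -0.60 to 1.18 for endothelial and -0.36 to 0.28 for immune cell markers. A p that misses the threshold with 3 pairs does not show that the cell types did not differ.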
